A study of Mus musculus with 4 samples.

Results

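Release machinery of synaptic vesicles was followed here through 36 genes, taken by name out of 21814 genes counted in mouse cell aggregates with and without the motor neuron factor Isl1-Lhx3. The members are 10 synaptotagmins (Syt1, Syt2, Syt3, Syt4, Syt5, Syt6, Syt7, Syt9, Syt11 and Syt13), 6 SNARE and complexin genes (Vamp1, Vamp2, Snap25, Stx1a, Cplx1 and Cplx2), 3 synapsins (Syn1, Syn2 and Syn3), 7 vesicle membrane genes (Syp, Synpr, Sv2a, Sv2b, Sv2c, Syngr1 and Syngr3), the Rab3 genes Rab3a, Rab3b and Rab3c with the synuclein Sncg, and 6 genes of the active zone and of priming (Rims1, Rims2, Unc13a, Bsn, Pclo and Erc2). They were taken by name and role, with no threshold on the measured values, though with earlier results of these data known. The comparison asks whether these genes moved together with the cholinergic genes, which give motor neurons their transmitter.

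The cells are iMN-ESCs, a line derived from mouse embryonic stem cells of C57BL/6 background in which doxycycline (Dox) turns on a fusion of Isl1 and Lhx3, a pair of LIM-homeodomain factors of spinal motor neurons. All aggregates spent 2 days in stem cell medium with LIF and 2 days in 0.5 µM all-trans retinoic acid. They then stayed in retinoic acid for 2 to 3 more days, with 2 µg/mL Dox in the Dox group and without it in the controls, with 2 libraries of total RNA per group. Dox on cells that lack the transgene is not among the samples, so the fusion and the drug cannot be told apart. How many clones the line represents is not given in the sources used here, and a change in the number of neurons and a change in RNA per neuron cannot be told apart in these bulk aggregates.

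A nerve terminal releases transmitter when a calcium signal reaches vesicles that are already docked at the active zone. Synaptobrevin on the vesicle (Vamp1, Vamp2) zips with syntaxin (Stx1a) and Snap25 on the plasma membrane, Unc13a and the RIM proteins prime the vesicle, and complexins and a calcium-binding synaptotagmin time the fusion. Synapsins tether the reserve pool, Rab3 proteins bring vesicles to the membrane, and Bsn, Pclo and Erc2 build the active zone scaffold. Motor neurons fill these vesicles with acetylcholine, which Chat makes and Slc18a3 loads.

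Part counts in genes ran from 24020832 to 53903936 per library. Isl1 stood at 3.08 and 5.83 counts per 1000000 (CPM) in the controls and at 104 and 82.4 CPM under Dox, and Lhx3 at 0.404 and 0.286 CPM against 125 and 108 CPM, the direction the labels give. Of 10 neuron markers, 2 were called higher with Dox (Nefm and Gap43) and none lower. Of the list 3 had a log2 fold change above and 7 below 0, with a median of -0.40. Both Dox libraries lay below both others for 5 of them, against 19.9% of all genes. The summed level of the 10 was 629 to 820 CPM in the controls and 1245 to 1509 CPM under Dox, and Nefl and Nefm held most of it under Dox. Nefl was at 166 and 277 CPM in the controls and at 659 and 900 CPM under Dox, while Tubb3 was at 79 and 83.8 CPM in the controls and at 59.8 and 42.7 CPM under Dox. All 8 neural progenitor markers had a log2 fold change below 0 and none was called (sum 1770 to 2109 CPM in the controls and 1396 to 1699 CPM under Dox). For 7 of these 8 both Dox libraries lay below both others, against 19.9% of all genes. Among 7 glial markers only Aqp4 was called higher (sum 92.6 to 111 and 117 to 130 CPM), and Gfap, S100b and Olig1 were under 1 CPM in every library, with S100b at 0 in 1 of them. The 6 endoderm markers had no call (sum 849 to 976 and 864 to 1045 CPM), with Gata4 at 553 to 644 CPM. Of 6 mesenchyme and endothelial markers Col1a1 and Col3a1 were called higher (sum 475 to 501 and 505 to 513 CPM). The 4 pluripotency markers had no call (sum 5.40 to 6.52 and 6.10 to 10.4 CPM). The part of these cell types in the release genes was not tested.

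Promoter letters are shown for 3 members and 2 cholinergic genes. They set the single member called higher with Dox beside members that did not pass the test and beside genes that rose steeply. Each run holds the 250 bases before the RefSeq start of the gene (assembly GRCm38.p6), read 5′ to 3′ on the gene's strand. For Sncg (chr14:34374670-34374919, minus strand), Syp (chrX:7638330-7638579, plus strand), Chat (chr14:32465910-32466159, minus strand) and Slc10a4 (chr5:73006654-73006903, plus strand), capitals mark the GC box GGGCGG and the E-box CAGNTG on either strand. For Syn1 (chrX:20920919-20921168, minus strand), capitals mark TTCAGCACC, the left part of the RE1 element bound by the neuronal repressor REST, and the cyclic AMP response element TGACGTCA.
Sncg: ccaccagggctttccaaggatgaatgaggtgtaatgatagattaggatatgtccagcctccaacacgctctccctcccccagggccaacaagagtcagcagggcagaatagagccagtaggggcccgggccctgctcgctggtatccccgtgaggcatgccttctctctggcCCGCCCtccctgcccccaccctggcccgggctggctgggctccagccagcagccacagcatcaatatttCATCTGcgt
Syn1: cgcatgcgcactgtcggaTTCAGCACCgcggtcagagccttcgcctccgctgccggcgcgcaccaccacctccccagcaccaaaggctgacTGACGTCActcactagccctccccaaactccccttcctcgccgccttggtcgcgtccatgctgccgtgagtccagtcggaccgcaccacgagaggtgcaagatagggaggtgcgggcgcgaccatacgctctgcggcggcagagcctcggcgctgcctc
Syp: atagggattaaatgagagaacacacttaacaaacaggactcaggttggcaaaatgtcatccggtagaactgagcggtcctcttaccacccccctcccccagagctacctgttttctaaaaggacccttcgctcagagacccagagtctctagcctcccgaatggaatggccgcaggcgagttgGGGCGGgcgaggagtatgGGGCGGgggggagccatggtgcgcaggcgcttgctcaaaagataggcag
Chat: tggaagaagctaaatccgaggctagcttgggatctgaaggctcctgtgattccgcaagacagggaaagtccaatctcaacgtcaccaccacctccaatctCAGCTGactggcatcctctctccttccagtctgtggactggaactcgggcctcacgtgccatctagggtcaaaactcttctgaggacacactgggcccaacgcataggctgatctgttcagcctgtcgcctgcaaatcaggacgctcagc
Slc10a4: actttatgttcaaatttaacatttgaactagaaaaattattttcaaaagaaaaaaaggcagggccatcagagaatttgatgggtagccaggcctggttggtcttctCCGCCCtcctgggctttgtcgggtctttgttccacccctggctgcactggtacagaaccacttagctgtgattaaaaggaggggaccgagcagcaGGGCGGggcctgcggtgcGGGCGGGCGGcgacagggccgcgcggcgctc

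Promoter windows were found for 27 of the 36 members. In these 250 bases, searched on both strands, the GC box GGGCGG occurred in 21 of 27 members and in 32.7% of all 32851 promoters. The E-box CAGNTG occurred in 16 of 27 members and in 44.8% of all promoters. TAATTA, the core that LIM-homeodomain factors share with many other homeodomain proteins, occurred in 1 member (Syt6) and in 4.84% of all promoters. TTCAGCACC (0.301% of all promoters) and TGACGTCA (1.55%) each occurred in 1 member, which was Syn1. None of the 5 motifs is contained in another. Sncg had 1 GC box and 1 E-box, Syp had 2 GC boxes, Slc10a4 had 4 overlapping or separate GC boxes, and Chat had 1 E-box and no GC box. These matches describe letters in the window and no binding was measured.

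With Dox 1 release gene was called higher, and rises that were far steeper were found among genes of acetylcholine. Of the 36 members 1 was called higher (Sncg), none was called lower, and all 36 passed the filter on low counts. Calls are from the edgeR quasi-likelihood test at a Benjamini-Hochberg adjusted p threshold of 0.05 over 14278 genes. Over all tested genes 1.23% were called higher and 0.0560% lower (1.28% in all). Before adjustment, at a p under 0.05, 3 members lay higher and 6 lower, where the shares over all genes were 6.25% and 4.01% (10.3% in all). With DESeq2 the calls were 2 members higher (Sncg and Syt1) and none lower, where 403 of all genes were higher and 116 lower. With limma-voom Sncg was called higher and none lower. More members were called, in both directions, with a replicate block, as given below with the other alternatives. The median log2 fold change of the members was -0.15, with a range of -1.30 to 2.26, and that of all genes was -0.01. Of the members 15 lay above and 21 below 0, and of all genes 6724 above and 7554 below. The members' median ran from -0.32 without Dox replicate 1 to 0.07 without Dox replicate 2. With 2 libraries per group an exact permutation test of a single gene cannot go below 0.333, so all tests come from the fits across genes. The series' design text calls the libraries biological duplicates. In edgeR, 2 members were called higher without no Dox replicate 1 (Sncg and Syt1) and without Dox replicate 2 (Sncg and Sv2c), and 1 was called lower without Dox replicate 1 (Syt2).

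Separation of the groups can be read without a test. Both Dox libraries lay above both others for 10 members and below both for 14, and the groups overlapped for 12. Over all genes 18.9% were higher and 19.9% lower in this sense (38.8% in all). The change was under 2-fold for 30 of 36 members and for 13566 of 14278 genes. The 95% interval lay wholly within 2-fold in either direction for 16 of 36 members and for 75.6% of all genes, and the interval of each remaining member reached past a 2-fold change. The summed level of the members was 385 and 340 CPM in the controls and 405 and 360 CPM under Dox. Leaving Sncg out, it was 374 and 326 CPM against 355 and 294 CPM.

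**Figure D1:**
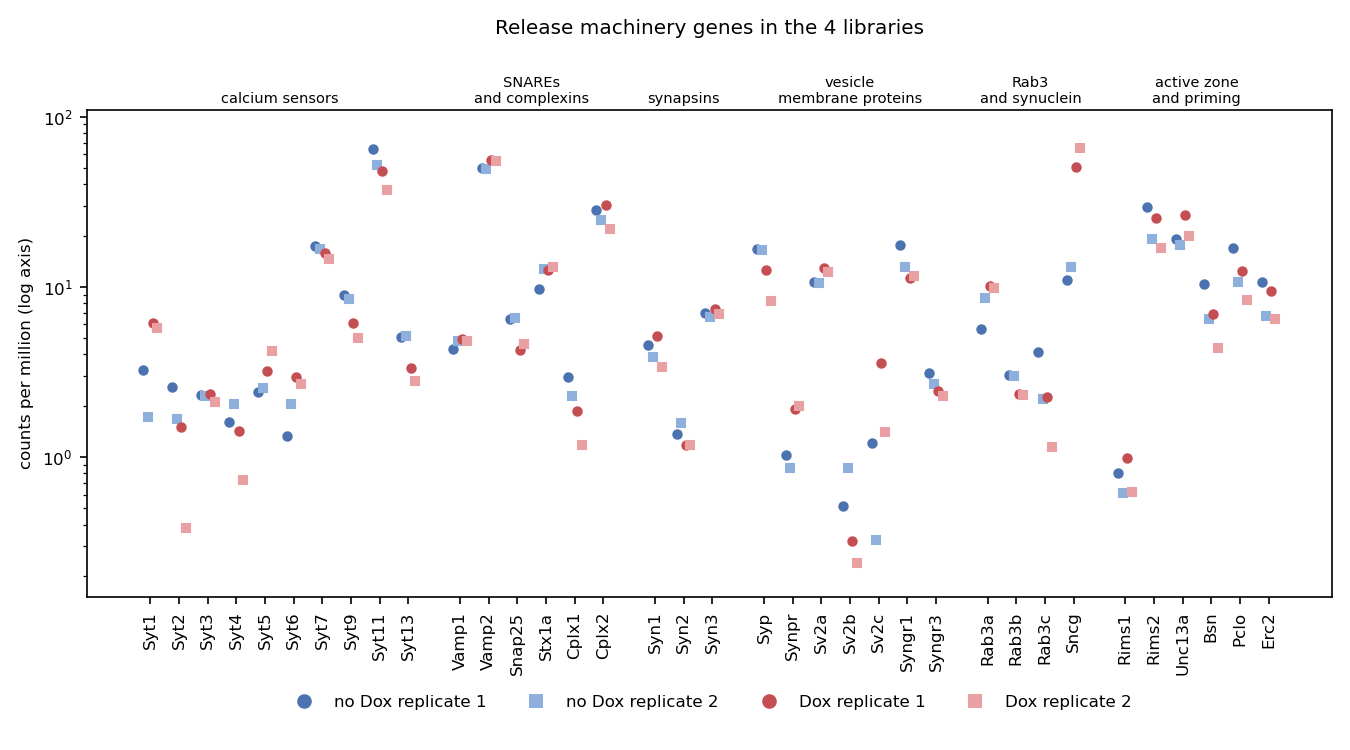
Level of each of the 36 release genes in the 4 libraries, in CPM on a log axis, ordered by role, with circles for replicate 1 and squares for replicate 2. Sncg is the only gene with both Dox libraries several times above both others (50.5 and 65.1 against 11 and 13.1 CPM), while Vamp2 lies between 49.2 and 55.5 CPM in all 4.

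Acetylcholine genes were read from the same fit. Chat, which makes acetylcholine, had 1 and 3 counts without Dox and 675 and 897 with Dox. Slc5a7, the choline transporter of the terminal, had 3 and 3 counts against 693 and 1568. Slc10a4, a transporter-like protein of cholinergic vesicles, had 3 and 7 counts against 1700 and 2117. As shares of the library totals, the summed counts were 225 times (exact 95% interval 87.8 to 827), 216 times (99.0 to 589) and 219 times (119 to 456) higher with Dox, and these intervals cover counting error only. All 3 were called (edgeR adjusted p = 9.69e-04, 0.00161 and 7.52e-04). Slc18a3, the vesicular acetylcholine transporter, stood at 0.624 and 0.49 CPM in the controls and at 25.7 and 25.5 CPM under Dox (log2 fold change 5.51, SE 0.22, edgeR adjusted p = 6.5e-04). It lies within the Chat locus, so some reads of either gene may be counted for the other. The other 4 genes of the list, Ache (log2 fold change -0.10), Bche (-0.19), Prima1 (-0.24) and Slc44a1 (0.08), break down acetylcholine, anchor that enzyme or carry choline in many cells, and none passed the test. So 4 of 8 cholinergic genes were called higher against 1 of 36 release genes. Both lists were chosen with earlier results of these data known, and the difference between them was not tested.

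Ratios per library set the RNA of cholinergic genes against that of release members. Per kb of exon, the signal of Slc18a3 was 0.0405 and 0.0318 of that of synaptophysin (Syp) without Dox and 2.22 and 3.31 times that of Syp with Dox. Against Sv2a, carried by nearly all synaptic vesicles, Slc18a3 went from ratios of 0.105 and 0.0839 to 3.59 and 3.76. Chat per kb was 0.00422 and 0.0138 of Snap25 without Dox and 3.16 and 2.65 times Snap25 with Dox. In each of these ratios the groups lay far apart, and the ratios of Chat in the controls rest on 1 and 3 counts.

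**Figure D2:**
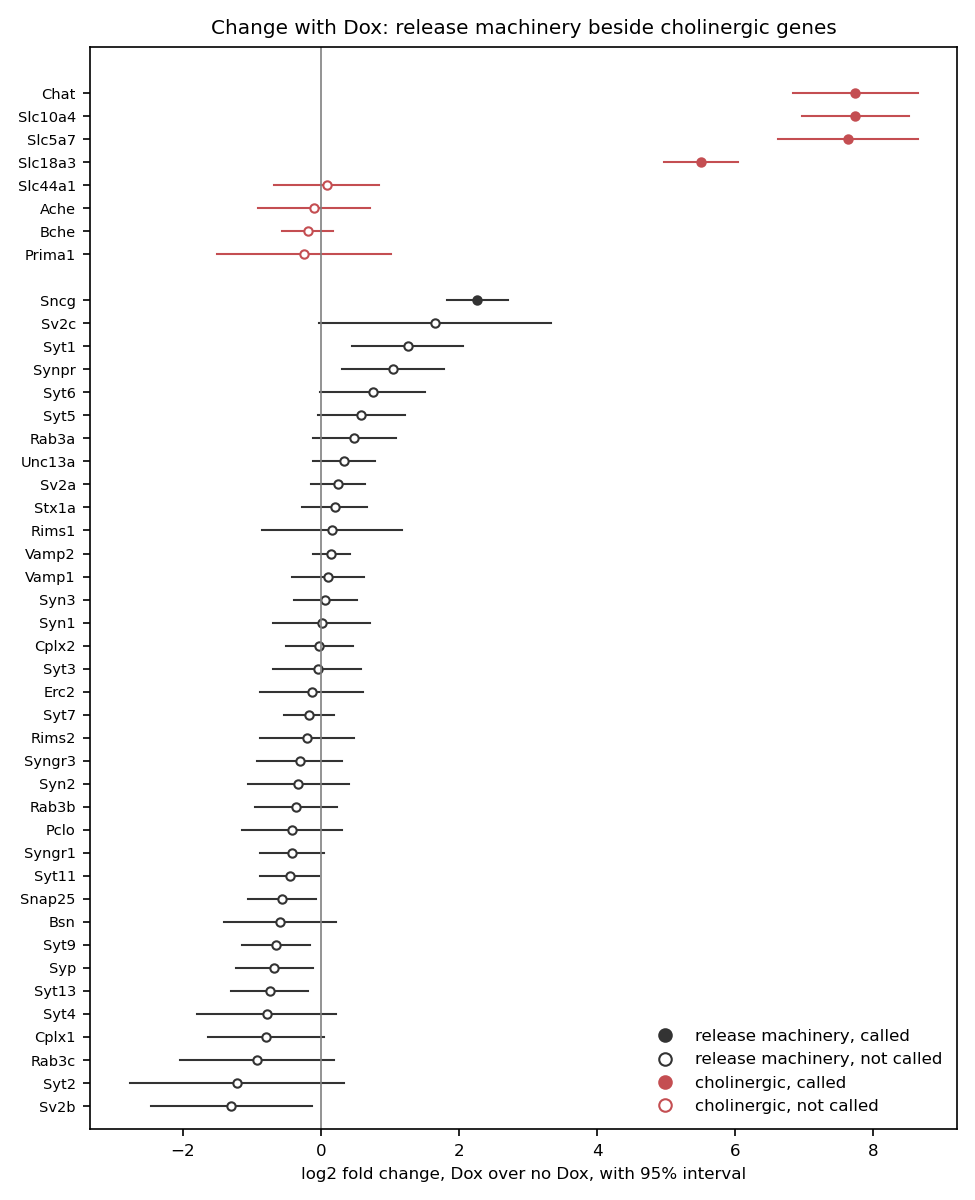
Log2 fold change with Dox and its 95% interval for the 36 release genes (black) and the 8 cholinergic genes (red), with filled points for genes called by edgeR. The 4 called cholinergic genes lie between 5.51 and 7.74, and Sncg at 2.26 is the only filled black point.

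Synuclein gamma (Sncg), a small vesicle-binding protein of motor and sensory neurons, was the member called higher. It stood at 11 and 13.1 CPM in the controls and at 50.5 and 65.1 CPM under Dox. The log2 fold change was 2.26 (SE 0.18, 95% interval 1.82 to 2.71, edgeR adjusted p = 0.0045), which is 4.81-fold. All 5 exons of Sncg took part, with ratios of 4.40 to 5.19 between the group means of their CPM, and no exon read 0 in any library. Per kb of exon Sncg moved from rank 2 of the 36 genes (14.1 CPM per kb) to rank 1 (67.8). Sncb, a relative of Sncg named after its values were seen, stood at 14.7 and 7.83 CPM against 6.58 and 4.01 CPM. It did not pass the main test and was called lower with the replicate block.

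Rab3 genes, the GTPases that take vesicles to the release site, had no call. Rab3a, the main neuronal form, was at 5.65 and 8.61 CPM in the controls and at 10.1 and 9.79 CPM under Dox (log2 fold change 0.48, SE 0.24, edgeR adjusted p = 0.607). Both Dox libraries of Rab3a were higher than both others. Rab3b stood at 3.05 and 2.98 CPM against 2.35 and 2.32 CPM (-0.36), lower in both Dox libraries by less than 1 CPM. Rab3c stood at 4.15 and 2.2 CPM against 2.25 and 1.15 CPM (-0.92), with overlapping groups.

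Synaptotagmins carry the calcium sensors of release, of which Syt1, Syt2 and Syt9 trigger fast fusion and Syt7 slower fusion. None of the 10 was called by edgeR, and 3 lay above and 7 below 0 with a median of -0.31. Syt1 was at 3.23 and 1.71 CPM in the controls and at 6.13 and 5.75 CPM under Dox. Its log2 fold change was 1.26 (SE 0.33, 95% interval 0.45 to 2.06, edgeR adjusted p = 0.214), with both Dox libraries above both others. Syt1 passed with DESeq2 (adjusted p = 0.0299), and with edgeR without no Dox replicate 1 (log2 fold change 1.80, adjusted p = 0.0256). Without Dox 3 and 7 of the 11 parts of Syt1 held no count, and with Dox none was empty. These part counts are not scaled for depth, and the gene held 88 and 42 counts without Dox and 229 and 314 with Dox.

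Syt2, the fast sensor of the mature neuromuscular junction, was at 2.57 and 1.67 CPM in the controls and at 1.5 and 0.384 CPM under Dox (log2 fold change -1.22, SE 0.63, edgeR adjusted p = 0.621). Both Dox libraries lay lower, and Dox replicate 2 lay well under the other. Without Dox replicate 1 the value was -2.46 and passed (edgeR adjusted p = 0.0157). Per kb of exon the ratio of Syt1 to Syt2 was 0.897 and 0.731 without Dox and 2.92 and 10.6 with Dox. Thus Syt1 was below Syt2 in both libraries without Dox and above it in both with Dox, a description of 21 to 314 counts per gene and library.

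Syt11, which lacks calcium binding and acts in membrane retrieval, was the most abundant synaptotagmin, at 64.3 and 51.9 CPM in the controls and 47.7 and 37.2 CPM under Dox (log2 fold change -0.45, SE 0.18, edgeR adjusted p = 0.45). Of the summed synaptotagmin level per kb, Syt11 held 46.2% and 41.6% without and 39.4% and 35.4% with Dox. Syt7 held 25.5% and 27.3% against 26.5% and 28.3%, and Syt1 held 2.23% and 1.32% against 4.84% and 5.26%. The share of Syt11 was thus lower and that of Syt1 higher in both Dox libraries, while the shares of Syt7 overlapped.

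Syt9 and Syt13 lay lower in both Dox libraries without passing the test. Syt9, a fast sensor, was at 8.92 and 8.49 CPM in the controls and 6.1 and 5.03 CPM under Dox (log2 fold change -0.65, SE 0.20, edgeR adjusted p = 0.304). Syt13, an atypical form without calcium binding, was at 5.1 and 5.14 CPM against 3.34 and 2.78 CPM (-0.74, SE 0.23, edgeR adjusted p = 0.296). Replicates of both genes sat closer to each other than to the other group. Syt5, a calcium-binding form, was at 2.42 and 2.53 CPM against 3.21 and 4.17 CPM, and Syt6 at 1.32 and 2.04 CPM against 2.94 and 2.69 CPM (log2 fold changes 0.58 and 0.75). Syt4, an activity-regulated form, was at 1.61 and 2.04 CPM against 1.42 and 0.732 CPM (-0.78). Syt3 stayed between 2.09 and 2.35 CPM in all 4 libraries, and Syt7 between 14.5 and 17.4 CPM.

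All 6 SNARE and complexin genes of the fusion core differed by less than 2-fold and none was called, with 3 on each side of 0 and a median of 0.04. Vamp2, the main synaptobrevin of central synapses, was at 49.7 and 49.2 CPM in the controls and at 55.5 and 54.6 CPM under Dox (log2 fold change 0.15, SE 0.11, 95% interval -0.11 to 0.42, edgeR adjusted p = 0.757). Its replicates differed by under 1 CPM and a change of 2-fold was outside the interval. Vamp1, the synaptobrevin of mature motor terminals, stayed at 4.29 to 4.95 CPM. Per kb Vamp2 exceeded Vamp1 by 14.8 to 16.7 times in all 4 libraries.

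Snap25, the plasma membrane SNARE, stood at 6.42 and 6.57 CPM in the controls and at 4.23 and 4.59 CPM under Dox (log2 fold change -0.56, SE 0.20, 95% interval -1.05 to -0.07, edgeR adjusted p = 0.402). Both Dox libraries were lower by far more than the replicates differed, and the gene did not pass the adjusted test. Stx1a was at 9.69 and 12.7 CPM against 12.5 and 13.1 CPM (0.20). Cplx1, a complexin that both clamps and promotes fusion, was at 2.94 and 2.28 CPM against 1.87 and 1.17 CPM (-0.79, SE 0.34, edgeR adjusted p = 0.521). Cplx2 was at 28.3 and 24.6 CPM against 30.3 and 21.7 CPM (-0.03), so its groups overlapped. Per kb Cplx2 exceeded Cplx1 by 4.28 and 4.80 times without Dox and by 7.20 and 8.22 times with Dox.

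Synapsins hold reserve vesicles together, and none of the 3 passed the test. Syn1 was at 4.55 and 3.84 CPM in the controls and at 5.14 and 3.37 CPM under Dox (log2 fold change 0.01, SE 0.29), with overlapping groups. Its sign turned under some settings, to -0.15 with the largest part as the count. Syn2 was at 1.36 and 1.59 CPM against 1.18 and 1.17 CPM (-0.33). Syn3 was at 7.01 and 6.65 CPM against 7.36 and 6.92 CPM (0.06). Its last exon, which overlaps Fbxo7 on the opposite strand, held 77.5% and 77.3% of its counts without and 69.8% and 74.9% with Dox. Whether strand was used in counting is not given in the sources used here, so the level of Syn3 may hold Fbxo7 reads, and without that part its fold change was 0.35 on the log2 scale (edgeR adjusted p = 0.816).

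Vesicle membrane proteins lay on both sides of 0, with 3 above and 4 below and a median of -0.31. The groups did not overlap for any of the 7, nor for 38.8% of all genes. Syp, the classic vesicle marker, was at 16.6 and 16.5 CPM in the controls and at 12.5 and 8.29 CPM under Dox (log2 fold change -0.68, SE 0.23, 95% interval -1.23 to -0.12, edgeR adjusted p = 0.353). Leaving out the part of Syp that overlaps an antisense gene took the counts from 451 and 405 to 226 and 145 in the controls. Under Dox they went from 466 and 453 to 211 and 223. The levels were then 8.29 and 5.92 CPM against 5.64 and 4.08 CPM, with a log2 fold change of -0.55 (edgeR adjusted p = 0.597). The rank and the ratios of Syp given here include that part. Synpr, a synaptophysin relative, was at 1.03 and 0.857 CPM against 1.9 and 1.99 CPM (1.04, SE 0.30, 95% interval 0.31 to 1.78, edgeR adjusted p = 0.26). Per kb Syp exceeded Synpr by 17.8 and 21.3 times without Dox and by 7.25 and 4.60 times with Dox, so the ratio was lower in both Dox libraries. Without Dox replicate 2 the value of Syp was -0.39, and it did not pass without any 1 library.

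The 3 Sv2 genes encode transporter-like glycoproteins of the vesicle, and Sv2c is the form enriched in the basal ganglia. Sv2a was at 10.7 and 10.5 CPM in the controls and at 12.9 and 12.2 CPM under Dox (log2 fold change 0.24, SE 0.16, edgeR adjusted p = 0.731). Sv2b was at 0.514 and 0.857 CPM against 0.321 and 0.238 CPM (-1.30, SE 0.48, edgeR adjusted p = 0.415), from 12 to 21 counts a library. Sv2c was at 1.21 and 0.326 CPM against 3.56 and 1.41 CPM (1.65, SE 0.69, 95% interval -0.03 to 3.33, edgeR adjusted p = 0.497). Replicates of Sv2c differed widely in both groups, though both Dox libraries lay above both others. Without Dox replicate 2 it passed (2.21, edgeR adjusted p = 0.0247). Syngr1 and Syngr3, synaptogyrins of the same tetraspan family as Syp, were at 17.5 and 13.1 against 11.3 and 11.5 CPM (-0.42) and at 3.12 and 2.69 against 2.43 and 2.27 CPM (-0.31).

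Active zone and priming genes had no call, a median of -0.17 and overlapping groups for 5 of 6. Unc13a, which opens syntaxin for priming, was the exception, at 19.1 and 17.6 CPM in the controls and at 26.4 and 19.8 CPM under Dox (log2 fold change 0.33, SE 0.18, edgeR adjusted p = 0.662). Rims2 was at 29.6 and 19 CPM against 25.4 and 17 CPM (-0.20), and Rims1 at 0.807 and 0.612 CPM against 0.99 and 0.622 CPM (0.16). Per kb Rims2 exceeded Rims1 by 34.5 to 49.3 times, so Rims2 was the dominant RIM gene in all 4 libraries. The scaffold genes Bsn (10.4 and 6.45 against 6.9 and 4.36 CPM), Pclo (16.9 and 10.7 against 12.4 and 8.33 CPM) and Erc2 (10.6 and 6.69 against 9.44 and 6.42 CPM) each read lower in replicate 2 than in replicate 1 of both groups. Their log2 fold changes were -0.59, -0.42 and -0.13.

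Levels between genes were compared per kb of exon. Without Dox the highest were Vamp2 (22.4 CPM per kb), Sncg (14.1), Syt11 (12.8) and Syt7 (7.64). With Dox they were Sncg (67.8), Vamp2 (24.9), Syt11 (9.32) and Rab3a (6.90). Of these neighbours, Sncg and Syt11 without Dox overlapped (12.9 and 15.3 against 14.1 and 11.4), and Rab3a and Syt7 with Dox overlapped (7.01 and 6.79 against 7.06 and 6.51). The ratio of Sncg to Vamp2 was 0.573 and 0.686 without and 2.35 and 3.09 with Dox, so the order of the pair turned. The lowest without Dox were Sv2b, Rims1 and Sv2c (0.120, 0.110 and 0.0844 CPM per kb), and the lowest with Dox were Rab3c, Rims1 and Sv2b (0.202, 0.125 and 0.0490). Syp stood at rank 5 without and rank 9 with Dox, and Syt1 at rank 29 and rank 21.

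**Figure D3:**
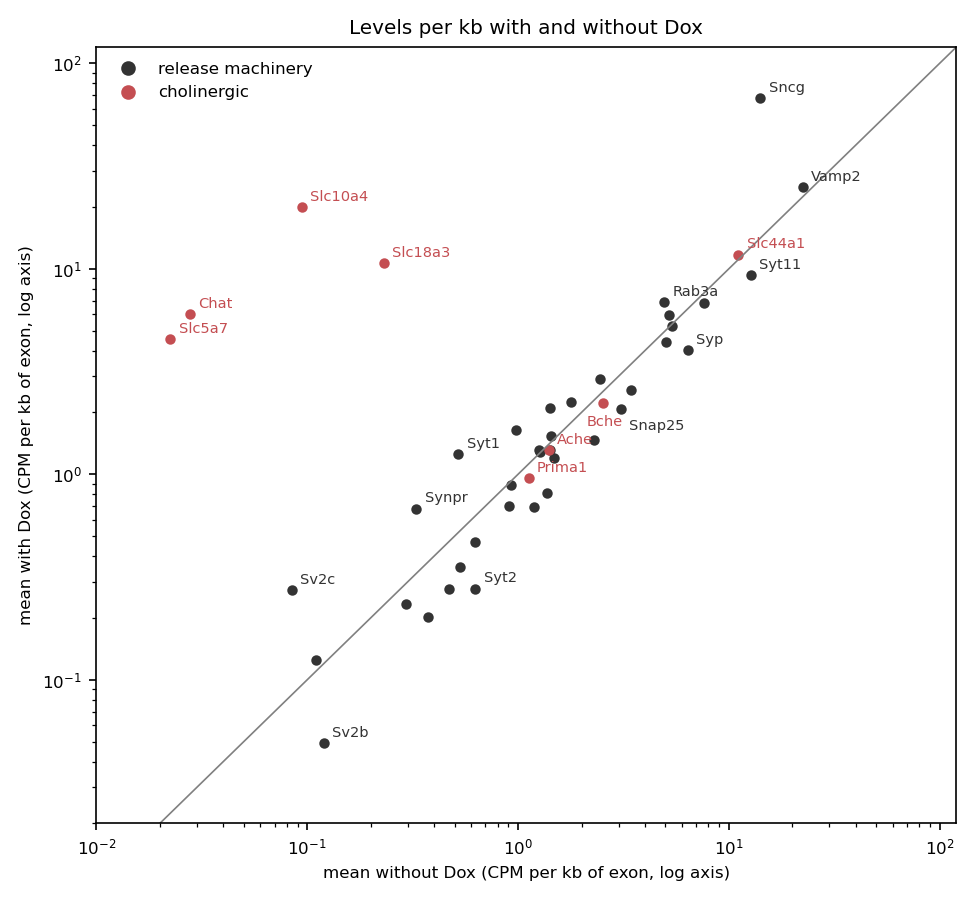
Mean level per kb of exon without Dox (x axis) and with Dox (y axis), both in CPM per kb on log axes, for the release genes (black) and the cholinergic genes (red), with a line of equal level. Chat, Slc5a7, Slc18a3 and Slc10a4 lie far above the line, while the release genes follow it from Sv2b to Vamp2 and Sncg (14.1 to 67.8) lies highest above it among the abundant ones.

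Libraries of the same group differed in how counts spread along genes. The 5′ share of a gene was the share of its counts in the parts before the middle of its part order. Parts were ordered from the 5′ end, without regard to their length. In 5857 genes with at least 10 parts and a mean of at least 100 counts, the median 5′ share was 36.1% and 35.0% in the number 1 libraries (no Dox and Dox). It was 27.4% and 29.5% in the number 2 libraries. Of the 11 members that met these limits, 10 had a lower 5′ share in no Dox replicate 2 than in no Dox replicate 1, and 9 in Dox replicate 2 than in Dox replicate 1. For Bsn the shares were 59.7% and 36.7% without and 42.6% and 39.9% with Dox. The level of 30 of 36 members was lower in Dox replicate 2 than in Dox replicate 1, against 49.3% of all genes. In the pair without Dox the number was 25 of 36 against 48.5%, and scaling by library totals alone gave 17 of 36 against 39.3% there and 29 of 36 against 46.3% in the Dox pair. The part of 3′ coverage in these differences was not tested. When only the largest part of a gene was counted, the median over the 34 members then tested was -0.07.

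**Figure D4:**
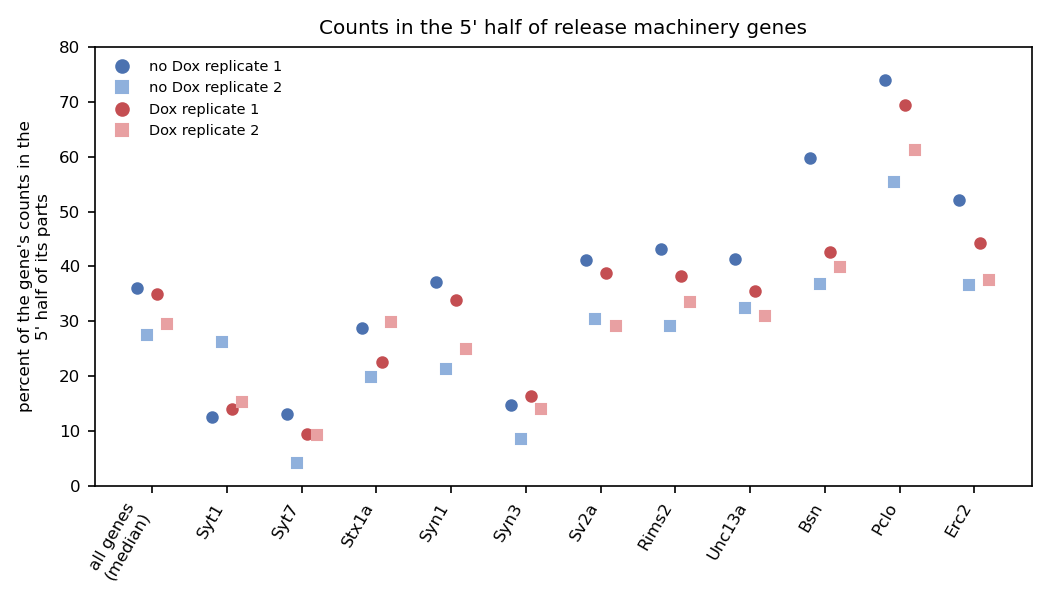
Percent of a gene's counts that fall in the parts before the middle of its part order, counted from the 5′ end. Values are given for the median of 5857 genes and for 11 release genes that met the same limits on parts and counts. The 4 libraries are shown (circles for replicate 1, squares for replicate 2). The squares lie below the circles of the same colour for most genes, as for Bsn (36.7% against 59.7% without Dox).

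Use of parts within genes was tested to look for a change of transcript. Of 25 members that could be tested none was called, by the F test or the Simes test of edgeR, against 0.0347% and 0.0173% of 11529 genes. Syn1, the 1 member with an unadjusted p under 0.05, and Syt5 and Rab3b, the next in order, each had an edgeR adjusted p = 1 in the F test, as had Snap25. The exon parts of Pclo ended abruptly: parts 20 and 21 together held 81 and 83 counts without and 105 and 142 with Dox, while parts 22 to 26 held 2 counts over all 4 libraries. Nearly all counts of Pclo thus came from parts before 22. Without the parts that overlap another annotated gene, the log2 fold changes were -0.39 for Pclo, 0.29 for Unc13a and -0.59 for Rab3b, none of which passed. Exons of Syt4, Syt7, Syn2 and Rab3a also overlap another annotated gene and were left as counted.

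Other genes of the release pathway were read from 8 lists, of which the cholinergic list is given above. In the remaining 7 lists 81 of 89 genes were tested, 2 were called higher and none lower. The median log2 fold change was 0.02, with 44 above and 37 below 0 (6724 and 7554 over all genes). Over all genes 1.23% were called higher and 0.0560% lower. Without adjustment 11 lay higher and 7 lower at a p under 0.05, where the shares over all genes were 6.25% and 4.01%. With DESeq2, 4 were called higher and none lower, where 403 of all genes were higher and 116 lower. With limma-voom 1 was called higher and none lower. In edgeR 4 were higher when no Dox replicate 1 or Dox replicate 2 was left out, 1 was lower when no Dox replicate 2 was, and 2 were lower when Dox replicate 1 was. Rab27b, a GTPase that docks secretory vesicles, had 34 and 68 counts without Dox and 1558 and 2671 with Dox (log2 fold change 4.51, SE 0.35, edgeR adjusted p = 0.004). Per kb it was 0.0434 and 0.0631 of Rab3a without Dox and 0.809 and 0.979 of Rab3a with Dox, so the 2 vesicle GTPases came to a like level. Ppfia4, a liprin of the active zone, was at 14.3 and 13.8 CPM against 26.5 and 25.7 CPM (0.89, SE 0.14, edgeR adjusted p = 0.049). The call of Ppfia4 ended without Dox replicate 1 (adjusted p = 0.102), without Dox replicate 2 (0.0866), with limma-voom (0.0547), with a filter of 5 CPM (0.0613) and with the largest part as the count (0.135).

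The other lists had no call. Among 26 tested genes of fusion and priming, Stx3, Napa and Vamp3 were the most abundant and stayed within log2 fold changes of -0.13 to 0.06, and the list's median was -0.01. Of 8 vesicle recycling genes, Itsn1, Bin1 and Synj1 were at -0.01, 0.01 and 0.01, and all 8 intervals lay within 2-fold. Of 9 presynaptic calcium channel genes (median 0.20), Cacnb3 was at 0.20, Cacna1a, the pore of the channel that serves release at mature motor terminals, at 0.22 and Cacna2d2 at -0.35. In 9 tested dense core vesicle genes (median -0.19), Cpe stood at 92.3 and 85.2 CPM against 122 and 117 CPM (0.43, SE 0.11, edgeR adjusted p = 0.202), Ptprn2 at -0.62 and Scg3 at -0.44.

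Transporters that load other transmitters were set beside Slc18a3. None of the 6 passed the test, and the median was -0.22. Slc18a2, which loads monoamines, lay at 21.4 and 21.4 CPM in the controls and 17.7 and 15.5 CPM under Dox (log2 fold change -0.37, SE 0.15, edgeR adjusted p = 0.477). Per kb Slc18a3 was 0.0458 and 0.0359 of Slc18a2 without and 2.28 and 2.58 times Slc18a2 with Dox. Slc18a1 (-0.08) and Slc17a7 (0.02) stayed under 4 CPM in all 4 libraries. The glutamate and GABA transporters Slc17a6 (0.404 and 0.49 against 0.187 and 0.0732 CPM) and Slc32a1 (1.65 and 1.06 against 0.749 and 0.366 CPM) lay lower in both Dox libraries without passing (edgeR adjusted p = 0.347 and 0.406). Slc17a8, the VGLUT3 gene, lay higher in both Dox libraries, with 1 and 2 counts in the controls and 37 and 23 under Dox, and did not pass (edgeR adjusted p = 0.166). Those 3 were named after their values were seen.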

How the data were processed

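Total RNA went through the Illumina TruSeq preparation, per the labels' protocols. The submitters' processing notes name TopHat and mouse build mm9. Not given in the sources used here are the counting tool, its annotation and its use of strand. The files as deposited hold raw counts for 208825 parts of genes, each named by RefSeq transcripts. The 4 entries per table without a gene stayed out of totals and tests. Reads outside genes came to 13.6% to 15.8% and ambiguous reads to 0.41% to 0.52% of a library.

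Parts were summed to 21822 gene units, and a read spanning parts may count in each. Of 27601 identifiers 97.1% matched RefSeq (GRCm38.p6) or GENCODE M21, and 21171 units had 1 symbol, 155 several and 496 none. The test was edgeR's (version 4.0.16, R 4.3.3) quasi-likelihood F test (robust fit, scaling by TMM, default filter on low counts, Benjamini-Hochberg over 14278 genes, threshold 0.05). DESeq2 1.42.0 and limma 3.58.1 (voom) were alternatives, and the scripts were tested on simulated data. CPM values use TMM, and levels per kb use exon lengths of GENCODE M21 transcripts matched to the counted ones. Replicates differed beyond counting noise (chi-square over degrees of freedom 37.3 in controls and 34.6 under Dox, biological coefficient of variation 0.148), and the median SD of log2 CPM within a group was 0.23 over the members. Each p-value weighs the difference between groups against the spread between the 2 libraries of each group, estimated with information shared across genes.

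The members and lists were chosen with earlier results of these data known. Every member is named. Of the other lists, called genes (up to 4 by smallest adjusted p) or, with no call, the 3 with the largest mean CPM are named, with Isl1, Lhx3 and all 8 cholinergic genes. For part use (parts with a mean of at least 10 counts) the 3 members of smallest p and Snap25 are named. Alternatives changed scaling, filter, test, replicate block, part summing and libraries. The removal of parts that overlap another gene (Syn3, Unc13a, Syp, Rab3b and Pclo) was added after seeing the data. Vamp7 was not analysed here.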

Additional observations from a re-analysis of the deposited data

How the results depend on the processing

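Sncg and Rab27b passed under all 12 alternatives, and 4 cholinergic genes were called higher under each. Over all genes 175 were called higher and 8 lower. Library totals alone gave 16 lower, and 4 pathway genes higher in place of 2. With no filter there were 295 higher and 46 lower genes, and 4 pathway genes higher. At a mean of at least 5 CPM there were 104 and 4, and 1 pathway gene higher, with 18 of 36 members tested. DESeq2 gave 403 and 116, with 2 members and 4 pathway genes higher. limma-voom gave 1 pathway gene higher, and the largest part as the count 14 genes lower and 1 pathway gene higher, with 34 members tested. Leaving out 1 library gave 271 to 280 genes higher and 19 to 116 lower, 1 to 2 members higher and 0 to 1 lower, and 2 to 4 pathway genes higher and 0 to 2 lower. The lone library of a group is then assumed to vary like the other group. The causes were not tested.

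No label ties the replicate numbers to a batch, and what they stand for is not given in the sources used here. Deviations of same-numbered libraries from their group means had a correlation of 0.61. With the replicate block 1044 of 14278 genes were called higher and 862 lower. Of the 36 members 4 were higher (Sncg, Sv2c, Synpr and Syt1) and 8 lower (Bsn, Rab3c, Snap25, Syp, Syt11, Syt13, Syt2 and Syt9). Of the 81 pathway genes tested in the main fit 11 were higher and 7 lower. Among those named here Rab27b, Ppfia4, Cpe, Slc17a8, Rimbp2 and Chga were higher. Sncb, Slc32a1, Ptprn2 and Scg3 were lower. In use of parts the block gave 7 genes by the F test and 4 by the Simes test, and no member.

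Over the members 385 values kept their direction and side of the threshold, 15 passed newly and 17 changed sign. The values that changed sign were not called. Itsn1 became 0.01 with library totals or no filter and 0.00 at 5 CPM, and Syn1 -0.05 with limma-voom. With the largest part as the count Syt3 was 0.26, Cplx2 0.02, Syn1 -0.15, Syn2 0.04, Syn3 -0.02, Ache 0.40, Slc44a1 -0.08, Bin1 -0.02, Slc18a1 0.05 and Cacna1a -0.02. Over the fits that leave out 1 library, the values on both sides of 0 were those of Cplx2 (-0.29 to 0.22), Rims2 (-0.51 to 0.16), Erc2 (-0.43 to 0.25), Prima1 (-0.79 to 0.71), Napa (-0.08 to 0.22), Itsn1 (-0.15 to 0.15), Bin1 (-0.02 to 0.05), Slc18a1 (-0.18 to 0.03), Syn1 (-0.32 to 0.31), Rims1 (-0.19 to 0.49), Ache (-0.45 to 0.37), Slc44a1 (-0.30 to 0.61), Stx3 (-0.06 to 0.16), Synj1 (-0.06 to 0.08), Slc17a7 (-0.38 to 0.44), Syt3 (-0.14 to 0.05) and Cacna2d2 (-0.85 to 0.05). The share of alternative exons in Snap25 was not run, since the counted unit holds a single form of that exon. Members under about 1 CPM rest on few counts, which limits what can be resolved for Sv2b, Rims1 and Sv2c.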

Other observations

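Rimbp2 and Chga, which lie outside the naming rule, are given as values chosen after they were seen. Rimbp2, which links RIM proteins to calcium channels, was at 2.75 and 1.51 CPM in the controls and at 7.17 and 8.49 CPM under Dox (log2 fold change 1.87, SE 0.32, edgeR adjusted p = 0.0675). Chga, the granin that fills dense core vesicles, was at 4.15 and 3.18 CPM against 11.2 and 8.6 CPM (1.43, SE 0.25, edgeR adjusted p = 0.0675). Both Dox libraries were above both others for both genes. Rimbp2 and Chga were each called higher with DESeq2, library totals alone, no filter and the replicate block. Neither was called with scaling by DESeq2 size factors, a mean of at least 5 CPM, limma-voom or the largest part as the count.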
